A study of Mus musculus with 16 samples.

Results

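Potassium channel genes were taken as the protein-coding genes of the pituitary expression table whose mouse symbol begins with Kcn, which gave 85 of 17362 genes listed. The rule used the symbol and no measured value. Pituitary RNA was sequenced from 16 female mice aged 27 weeks, 1 library per mouse, with 4 mice in each combination of genotype and diet. Mutant mice (Esr1Nkx2-1Cre) carried a deletion of the floxed oestrogen receptor gene *Esr1* in cells of the *Nkx2-1* lineage, and controls (Ctrl) were Esr1fl/fl mice without the deletion, both on a CD-1;129P2 mixed background. Mice ate a standard chow diet (SD) or a high-fat diet (HFD) for 17 weeks, a diet on which the study followed the loss of the high bone mass of mutant females. The Cre driver is not specific to the pituitary, since *Nkx2-1* marks the developing ventral brain and the posterior lobe, and it is not a marker of the anterior lobe.

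Potassium channels let potassium leave the cell, which holds the resting potential and ends each action potential. Pituitary endocrine cells fire spontaneously, and the calcium that enters with each spike releases hormone, so the mix of potassium channels sets how long and how often a cell fires. Voltage-gated, calcium-activated, inward-rectifier and 2-pore-domain channels are each encoded by a family of pore-forming genes, and several families have auxiliary subunits that change gating or traffic. The 85 genes comprised 29 voltage-gated pore-forming subunits, 8 silent subunits that open only in company with other voltage-gated subunits, and 11 voltage-gated auxiliary or regulatory subunits. The rest were 14 inward rectifiers, 12 2-pore-domain channels, 8 pore-forming subunits grouped by symbol as calcium- or sodium-activated, and 3 auxiliary subunits of the large-conductance calcium-activated (BK) channel. The grouping by symbol does not show that each of those 8 is opened by calcium or sodium.

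Levels are given as the normalized values that the authors deposited, which are scaled for transcript length and library size and can be compared between genes. Of the 85 genes, 55 had a mean level of at least 1 over the 16 mice and entered the test, which took in 14345 genes. The other 30 stayed below that mean. In the text a gene is called when limma's adjusted p was below 0.05 over all 14345 genes tested, and a log2 change is a difference of group means on the log2(value + 0.5) scale, which understates the change of low genes. Nothing in the labels says whether the mice came from separate litters, so the p-values measure the spread between these mice only.

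The targeted gene was read first, and values are listed in the order of the mouse numbers. *Esr1* levels were 40.5, 46.6, 39.4 and 29.0 in the 4 Ctrl mice on SD and 10.02, 22.2, 20.5 and 21.8 in the 4 mutants on SD. On HFD they were 23.6, 43.4, 42.7 and 39.6 in Ctrl mice and 33.3, 27.9, 33.0 and 21.5 in mutants. The genotypes therefore did not overlap on SD (log2 change -1.09 ± 0.25 SE, limma adjusted p = 0.0409) and overlapped on HFD (-0.34 ± 0.25, adjusted p = 0.696).

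Libraries P357 (a mutant on SD) and P392 (a Ctrl mouse on HFD) stood apart from the rest. Summed levels of 4 melanotroph markers (*Pomc*, *Pcsk2*, *Pax7* and *Oacyl*), which mark the intermediate lobe, were 1666 in P357 and 3484 in P392 against 11369 to 42298 in the other 14 mice. Of 4 pituicyte markers of the posterior lobe, *Rax* was listed at 0 in both, *Nkx2-1* at 0 in P392 and *Lhx2* at 0 in P357. *Col25a1* went the other way in P392, at 15.3 against 6.06 to 11.9 in the other Ctrl mice, and the mutants had 13.9 to 18.2. It made up most of the sum of the 4 in both libraries. The sum was 15.9 in P392, at the top of the Ctrl range, and 14.3 in P357, the lowest of the mutants. Because *Col25a1* differed with genotype, this sum is not a measure of the posterior lobe alone. P392 also lay with the other genotype in its channel genes: for all 14 potassium channel genes called by genotype over both diets, its level lay nearer the mean of the mutants than that of the remaining controls, whereas this held for 4 genes in P356, 4 in P385, 1 in P383 and 0 in the other 4 controls. Its *Esr1* level, 39.6, lay among the controls. Results are therefore given with all 16 mice and without these 2 libraries. P392 was set apart partly by its levels of these same genes. More calls without it follow in part from that choice and are not separate support.

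In Ctrl mice on SD the highest level belonged to *Kcnh2*, which encodes the Erg channel that sets the resting potential of lactotrophs. It averaged 86.6 ± 10.7 (SD, n = 4). *Kcnt1*, a sodium-activated channel, averaged 54.4 ± 41.0. *Kcnk2*, the mechanosensitive 2-pore-domain channel TREK-1, averaged 35.0 ± 3.86, *Kcnq1*, a slow voltage-gated channel, 24.8 ± 17.99, and *Kcnip3*, a calcium-binding partner of A-type channels, 24.1 ± 6.52. The spreads show that *Kcnt1* overlapped both *Kcnh2* above it and *Kcnk2* below it in the order of levels. *Kcnk1* (19.2 ± 2.27), *Kcnmb4* (18.6 ± 5.62), *Kcnma1* (15.9 ± 3.61), *Kcnk12* (15.6 ± 2.58), *Kcnd3* (15.4 ± 1.53) and *Kcnh8* (11.4 ± 1.78) were also among the 12 highest. From *Kcnk1* to *Kcnd3* neighbours did not differ beyond their spread, whereas *Kcnh8* lay below every *Kcnd3* value. *Kcnma1* is the pore of the BK channel and *Kcnmb4* is its neuronal auxiliary subunit. The order changed with genotype at the top, where *Kcnt1* averaged 166 ± 46.8 in mutants on SD and 147 ± 15.4 in mutants on HFD, above the 65.7 ± 7.58 and 65.9 ± 9.35 of *Kcnh2* in the same mice.

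**Figure D1:**
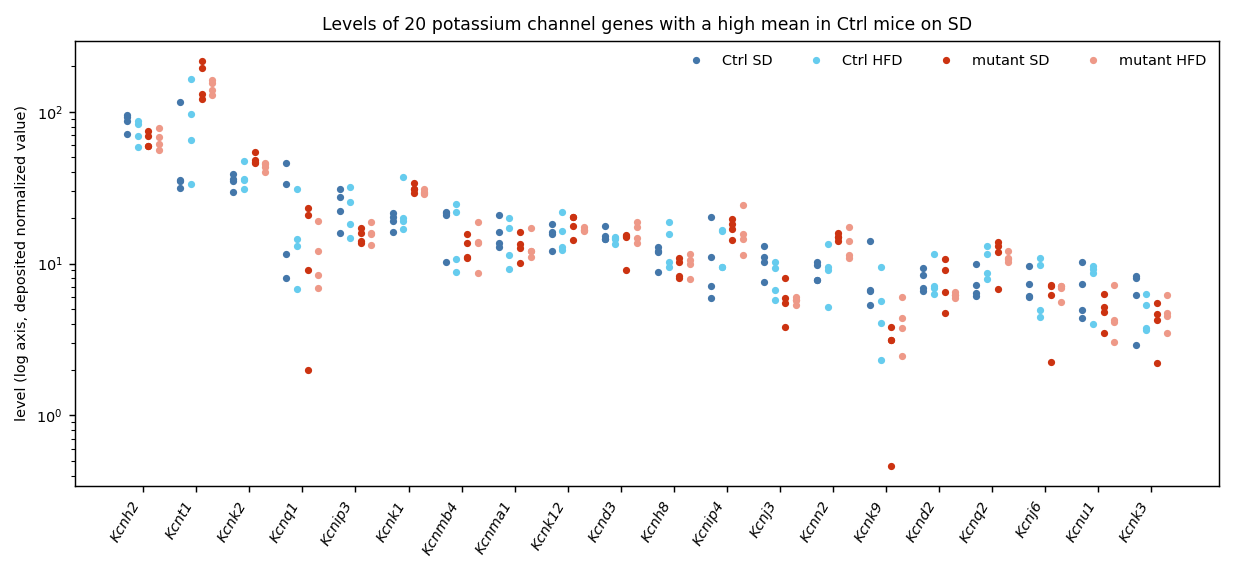
Level of 20 potassium channel genes with a high mean in Ctrl mice on SD, on a log axis, with 1 point per mouse and 1 colour per group. The mutant points of *Kcnt1* (121 to 216) and *Kcnk1* (28.8 to 33.9) lie above those of 7 of the 8 Ctrl mice, while *Kcnh2* stays within a narrow range and *Kcnq1* scatters in every group.

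On SD, 4 of the 55 tested potassium channel genes were called between genotypes, and all 4 were higher in mutants: the sodium-activated channels *Kcnt2* and *Kcnt1*, the voltage-gated auxiliary subunit *Kcnab1* and the voltage-gated pore *Kcnh4*. Of all genes tested, 1.84% were called on SD, 1.37% higher and 0.474% lower. The 4 calls are 7.27% of the 55. At an unadjusted p below 0.05 there were 28 potassium channel genes, 14 higher and 14 lower, beside 19.9% of all genes. The groups did not overlap for 15 of the 55, 10 higher and 5 lower, beside 10.6% of all genes. The median log2 change over the 55 was -0.20, against -0.01 over all genes tested.

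The sodium-activated channels of the Slack family, which carry a slow outward current when sodium builds up during firing, gave the largest rises on SD among the 55 tested genes. *Kcnt1* (chromosome 2, 25863734 to 25918273 of mm10) had levels of 116, 35.6, 34.8 and 31.5 in Ctrl mice on SD and 216, 132, 195 and 121 in mutants on SD. The HFD groups had 96.8, 33.6, 65.4 and 165 in Ctrl mice and 129, 163, 155 and 140 in mutants. The high Ctrl values came from P356 on SD and from P385 and P392 on HFD, so that the genotypes separated narrowly on SD and overlapped on HFD. The log2 change was 1.79 ± 0.43 SE on SD (limma adjusted p = 0.0456) and 0.92 ± 0.43 on HFD (adjusted p = 0.487), and the test of the difference between diets did not pass (interaction -0.87 ± 0.61, adjusted p = 0.924).

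*Kcnt2* (chromosome 1, 140246158 to 140612067), the paralogue Slick, had lower levels but was the only tested potassium channel gene whose 8 mutants all lay above its 8 controls. Of all 14345 genes tested, 40 had their mutants above their controls in this way. The share was 0.432% when genes with all mutants below all controls were counted too. Its levels were 0.75, 1.52, 1.21 and 0.79 in Ctrl mice and 4.48, 3.53, 3.2 and 3.23 in mutants on SD. After HFD the levels were 0.636, 0.791, 0.985 and 1.91 in Ctrl mice and 3.82, 2.02, 3.75 and 2.40 in mutants. The closest pair across genotypes was P392 at 1.91 and a mutant at 2.02. The log2 change was 1.41 ± 0.26 on SD (limma adjusted p = 0.0196) and 1.17 ± 0.26 on HFD (adjusted p = 0.205). An exon of *Kcnt2* overlaps 4930590L20Rik on the opposite strand, and the longest stretch that their transcripts share was 108 bases. Since strand use in counting is not stated, reads within that stretch cannot be told apart.

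*Kcnab1* (chromosome 3, 65109384 to 65378223) encodes a beta subunit that speeds inactivation of voltage-gated channels. Its levels were 4.48, 5.59, 3.57 and 2.58 in Ctrl mice and 10.1, 9.89, 13.8 and 10.4 in mutants on SD. On HFD they were 3.10, 3.83, 5.07 and 10.7 in Ctrl mice and 13.8, 12, 9.74 and 12.3 in mutants. Only P392, at 10.7, reached the mutant range. The log2 change was 1.37 ± 0.29 on SD (limma adjusted p = 0.0297) and 1.15 ± 0.29 on HFD (adjusted p = 0.211). The gene shares exon sequence with A330015K06Rik on the opposite strand.

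*Kcnh4* (chromosome 11, 100740376 to 100759942), a channel of the Elk group that opens near the resting potential, had levels of 1.05, 0.242, 0.371 and 0.517 in Ctrl mice and 2.33, 1.74, 2.01 and 1.72 in mutants on SD. The HFD groups had 0.824, 0.759, 0.502 and 2.34 in Ctrl mice and 1.78, 1.95, 2.08 and 1.25 in mutants. P392 was the highest of all 16 mice. The log2 change was 1.28 ± 0.31 on SD (limma adjusted p = 0.0456) and 0.60 ± 0.31 on HFD (adjusted p = 0.529).

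The number of calls on SD moved with single mice, as it did over all genes. Without P359, P382 or P383 none of the 55 was called, beside 0.230% to 0.265% of all genes. Without P357, P358 or P384 there was 1, *Kcnt2*, and without P381 there was 1, *Kcna3*, beside 0.300% to 0.934%. Without P339, P341, P387 or P388 there were 2, the genes *Kcnab1* and *Kcnt2*, beside 1.01% to 1.17%. Without P356 there were 12, beside 5.76% of all genes, and without P392 there were 12, beside 5.42%. The log2 changes with each mouse left out ran from 1.31 to 1.54 (*Kcnt2*), 1.20 to 1.53 (*Kcnab1*), 1.13 to 1.49 (*Kcnh4*) and 1.61 to 2.23 (*Kcnt1*). Without both P357 and P392 there were 10, 9 higher and 1 lower, beside 6.70% of all genes; they included the same 4 genes with log2 changes of 1.31 (*Kcnt2*), 1.41 (*Kcnab1*), 1.21 (*Kcnh4*) and 1.65 (*Kcnt1*). With the mean of the melanotroph and posterior lobe markers as a covariate there was 1, *Kcnt2*, beside 0.432%. That mean includes *Col25a1*, which was higher in mutants, so it is not independent of genotype.

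Promoters are printed for 3 genes that were higher in mutants and have a single listed start, as the sequence next to the start from which the transcript is made; *Kcnk15* is described with the low genes. They are RefSeq sequences of GRCm38.p6, 250 bases before to 50 bases after the start, read 5′ to 3′ along the gene, from chr1:140245468-140245767 (plus strand) for *Kcnt2*, chr11:100759729-100760028 (minus strand) for *Kcnh4* and chr2:163853500-163853799 (plus strand) for *Kcnk15*. The RefSeq start of *Kcnt2* lies upstream of the gene start given above, which is that of GENCODE. Capitals mark matches on either strand to the GC box GGGCGG or the E-box CACGTG.
Kcnt2: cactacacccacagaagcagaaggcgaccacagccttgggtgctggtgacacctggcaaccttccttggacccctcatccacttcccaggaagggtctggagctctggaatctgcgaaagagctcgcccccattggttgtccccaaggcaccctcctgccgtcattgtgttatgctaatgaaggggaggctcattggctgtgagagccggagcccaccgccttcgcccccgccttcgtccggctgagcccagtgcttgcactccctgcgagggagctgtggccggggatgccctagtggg
Kcnh4: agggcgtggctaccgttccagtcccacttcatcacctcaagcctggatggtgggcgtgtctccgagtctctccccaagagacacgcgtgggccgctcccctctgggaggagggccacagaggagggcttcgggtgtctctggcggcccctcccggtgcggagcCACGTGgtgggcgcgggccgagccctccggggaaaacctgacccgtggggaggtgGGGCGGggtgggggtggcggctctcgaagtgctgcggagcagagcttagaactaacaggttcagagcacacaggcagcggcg
Kcnk15: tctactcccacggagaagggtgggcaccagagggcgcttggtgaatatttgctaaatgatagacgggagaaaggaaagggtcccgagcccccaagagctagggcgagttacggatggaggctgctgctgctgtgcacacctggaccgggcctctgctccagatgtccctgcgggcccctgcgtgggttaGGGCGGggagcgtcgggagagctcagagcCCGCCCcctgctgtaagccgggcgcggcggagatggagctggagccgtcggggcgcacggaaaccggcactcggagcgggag

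Of the 85 genes, 62 had 86 promoters in the RefSeq set. The GC box was present in 48.8% of these 86 and in 35.7% of all 32851 promoters, and the E-box in 8.14% and 7.15%. The palindromic oestrogen response element GGTCANNNTGACC matched 0 of the 86 promoters and 0.0700% of all, and its half-site AGGTCA matched 5.81% and 16.3%. Both strands were searched for each, and a half-site can lie inside the palindrome. None of the 3 printed windows held either oestrogen motif. A match of letters is not a bound site, and promoter windows of this length hold no distal elements.

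**Figure D2:**
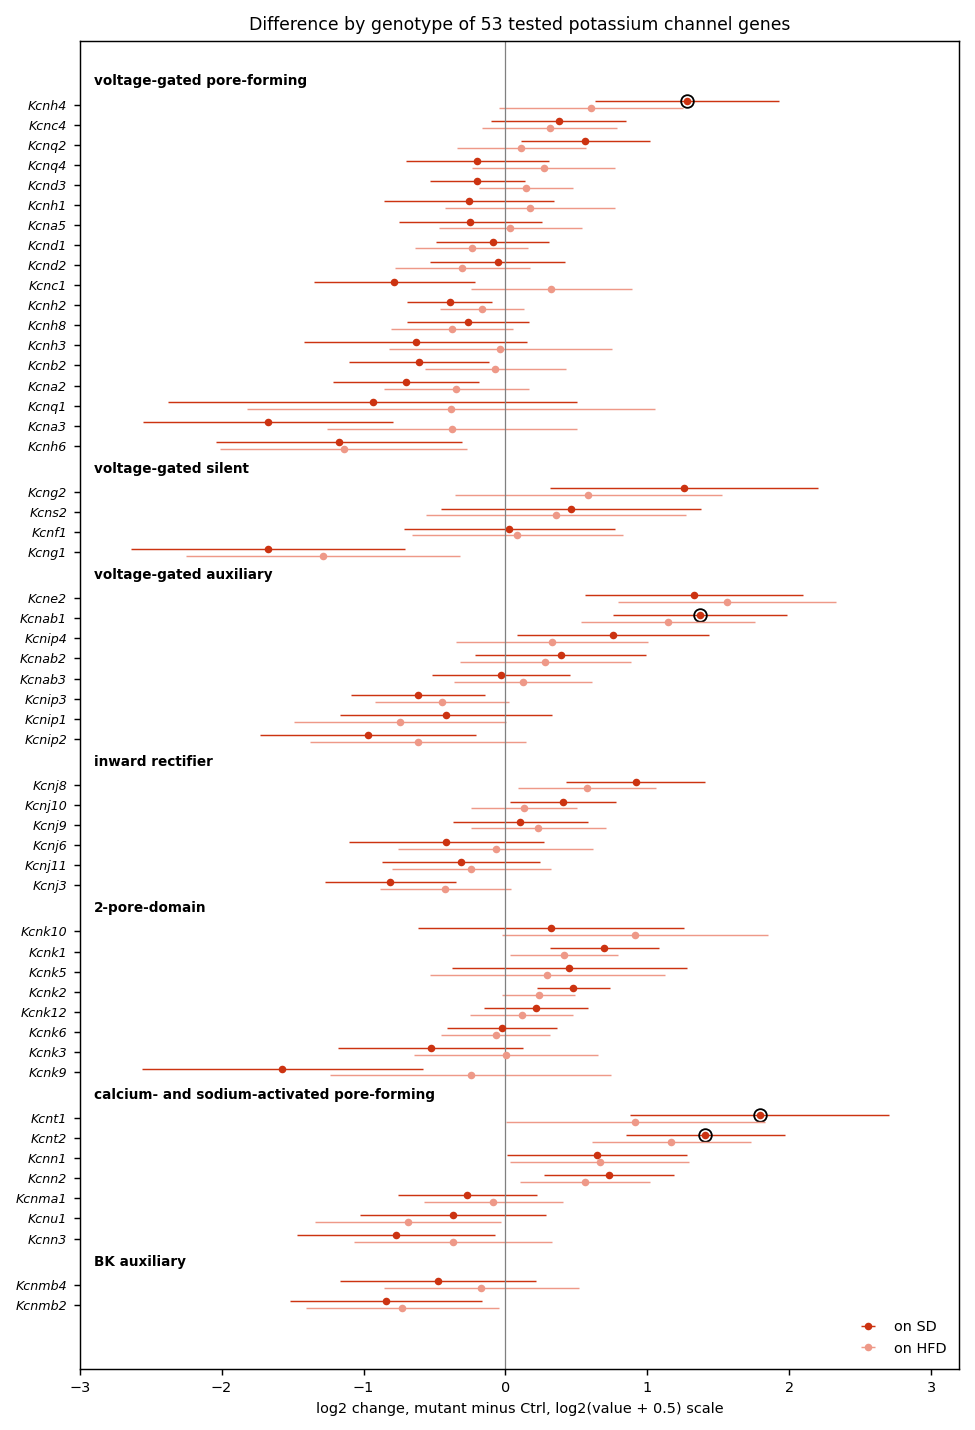
Log2 change between genotypes, mutant minus Ctrl, for 53 of the 55 tested genes by family, with 95% confidence intervals from the fit, on SD (dark) and HFD (light). Circled points are the 4 genes called on SD; no point on HFD is circled, and the sodium-activated *Kcnt1* and *Kcnt2* lie farthest to the right on SD.

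On HFD no potassium channel gene was called between genotypes, nor was any other gene (0.00% of 14345). At an unadjusted p below 0.05 there were 12 of the 55, 8 higher and 4 lower, beside 10.2% of all genes. Groups did not overlap for 2, *Kcne2* and *Kcnt2*, beside 5.30% of all genes. P392 carried weight here: without it 7 of the 55 were called (4.55% of all genes), and without both P357 and P392 10 were called, 7 higher and 3 lower (7.42% of all genes). These counts are not separate support, since P392 was set apart partly by its channel genes. Those 10 were *Kcnab1*, *Kcne2*, *Kcnh4*, *Kcnk1*, *Kcnk2*, *Kcnn2* and *Kcnt2*, higher in mutants, and *Kcng1*, *Kcnh6* and *Kcnmb2*, lower. The interaction of genotype and diet was called for none of the 55 and for 0.00% of all genes; 2 of the 55, *Kcna3* and *Kcnc1*, had an unadjusted p below 0.05, beside 4.20% of all genes.

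Averaged over both diets, 14 of the 55 were called between genotypes, 9 higher and 5 lower, beside 6.54% of all genes (4.48% higher and 2.06% lower). The 14 calls are 25.5% of the 55. They fell in every family: 3 of 7 tested channels grouped as calcium- or sodium-activated, 3 of 20 voltage-gated pores, 2 of 8 voltage-gated auxiliary subunits, 2 of 6 inward rectifiers, 2 of 8 2-pore-domain channels, 1 of 4 silent subunits and 1 of 2 BK auxiliary subunits. The median log2 change of the 55 was -0.05, against 0.00 over all genes. Without P392 there were 24 (13.5% of all genes), without P383 or P390 there were 9 (3.53% and 3.07%), and without both P357 and P392 there were 27, 14 higher and 13 lower (18.6% of all genes). All 14 genes were among the 27, which is not separate support, since P392 was set apart partly by its levels of those 14.

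**Figure D3:**
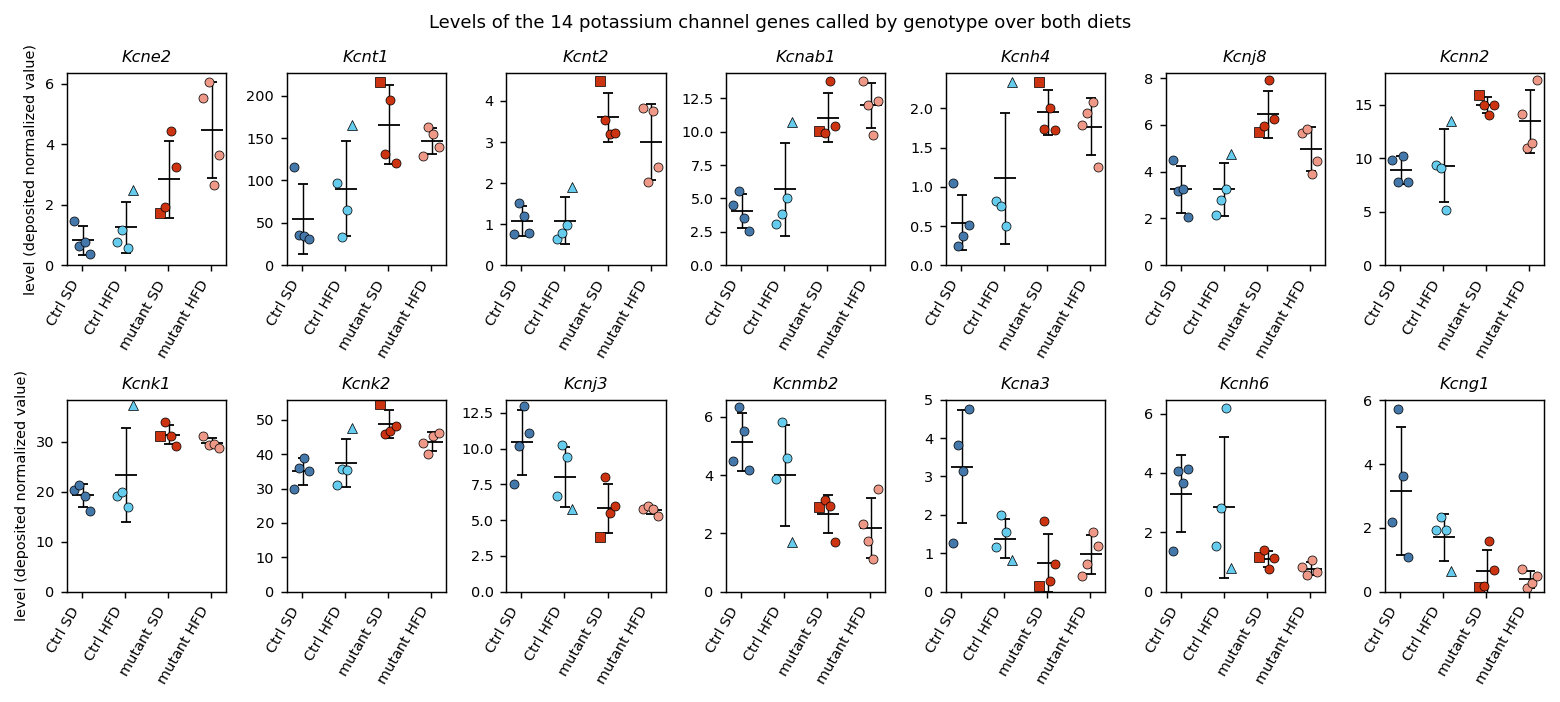
Level of each of the 14 genes called over both diets, with 1 point per mouse, the mean and the SD of each group of 4; each vertical axis starts at 0, the triangle is P392 and the square is P357. The upper row and the first 2 panels of the lower row show genes higher in mutants, the other 5 panels genes lower, and the triangle lies within or next to the range of the mutants in each panel.

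Among calcium-activated channels, *Kcnn2*, the small-conductance SK2 channel that makes the pause after a burst, rose with the sodium-activated pair. Its levels were 9.82, 7.78, 10.2 and 7.83 in Ctrl mice and 16, 15, 14.1 and 15 in mutants on SD, with no overlap. After HFD the levels were 9.41, 9.09, 5.18 and 13.5 in Ctrl mice and 14.1, 10.9, 11.4 and 17.4 in mutants. The log2 change over both diets was 0.65 ± 0.15 SE (limma adjusted p = 0.0222), and without P383 it was not called (adjusted p = 0.0506). Exons of *Kcnn2* and *Kcnj3* overlap transcripts of the opposite strand. The BK pore *Kcnma1*, by contrast, was not called: it averaged 15.9 ± 3.61 in Ctrl mice and 13.1 ± 2.50 in mutants on SD, and its 95% interval over both diets ran from -0.52 to 0.17. *Kcnmb2*, the BK subunit that makes the current inactivate, fell by 0.78 ± 0.23 on the log2 scale (adjusted p = 0.0494), from 5.12 ± 0.996 to 2.67 ± 0.661 on SD. Leaving out single mice, that call held only without P356, P388 or P392, and it held in 5 of 11 other settings.

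The 2-pore-domain channels carry the leak current that sets the resting potential. *Kcnk1* (TWIK-1) had levels of 20.3, 21.4, 19.2 and 16.1 in Ctrl mice and 31.2, 33.9, 31.2 and 29.2 in mutants on SD. On HFD they were 19.2, 19.9, 16.9 and 37.3 in Ctrl mice and 31.1, 29.3, 29.5 and 28.8 in mutants. Every mutant lay between 28.8 and 33.9 and 7 controls between 16.1 and 21.4, with P392 above all. The log2 change over both diets was 0.56 ± 0.13 (limma adjusted p = 0.0189), and without P357 and P392 it was 0.68 and again called. *Kcnk2* moved less, from 35.0 ± 3.86 to 48.9 ± 4.02 on SD and from 37.4 ± 7.03 to 43.7 ± 2.75 on HFD, with a log2 change of 0.36 ± 0.09 (adjusted p = 0.0236) that was not called without P387, P390 or P391 (highest adjusted p 0.0560) or when libraries were scaled to the sum without *Prl*, *Gh* and mitochondrial genes (0.0530). *Kcnk1* and *Kcnk2* each share exon sequence with an opposite-strand transcript. *Kcnk9* (TASK-3), the acid-sensitive leak channel, did not overlap on SD, where it ran from 5.30 to 14 in Ctrl mice and from 0.463 to 3.84 in mutants, and was not called (-1.57 ± 0.47, adjusted p = 0.0879).

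Inward rectifiers close on depolarization, and the Kir6 pores pair with sulphonylurea receptors to form ATP-sensitive channels. *Kcnj8*, the ATP-sensitive pore Kir6.1 of vascular cells, had levels of 4.50, 3.16, 3.24 and 2.08 in Ctrl mice and 5.68, 5.93, 7.91 and 6.26 in mutants on SD. The HFD groups had 2.13, 2.79, 3.27 and 4.77 in Ctrl mice and 5.65, 5.83, 3.89 and 4.44 in mutants. The log2 change over both diets was 0.75 ± 0.16 (limma adjusted p = 0.0156). Its partner *Abcc9*, the sulphonylurea receptor SUR2, was also higher over both diets (0.73 ± 0.20, adjusted p = 0.0399), with 2.10 to 3.51 in Ctrl mice and 3.57 to 5.71 in mutants on SD. *Kcnj8* and *Abcc9* are typical of pericytes. The summed level of 4 mural markers (*Rgs5*, *Pdgfrb*, *Cspg4* and *Acta2*) was 28 to 45.0 in 7 Ctrl mice, 136 in P392 and 70.7 to 126 in mutants. Most of this sum is *Rgs5*, at 18.4 to 33.5 in those 7 Ctrl mice and 59.6 to 108 in mutants. *Pdgfrb*, *Cspg4* and *Acta2* each overlapped between these Ctrl mice and the mutants. The part of these cells in the channel differences was not tested, and in whole pituitary more cells of a type and more RNA per cell cannot be told apart.

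*Kcnj3*, the Kir3.1 subunit that couples to dopamine and somatostatin receptors through G proteins, was lower in mutants. Its levels were 7.53, 10.2, 13.0 and 11.1 in Ctrl mice and 3.80, 8.01, 5.51 and 5.96 in mutants on SD. After HFD the levels were 6.70, 10.2, 9.39 and 5.77 in Ctrl mice and 5.77, 5.99, 5.78 and 5.30 in mutants. Mutants on HFD lay in a narrow band at the foot of the Ctrl range. It fell by 0.62 ± 0.15 on the log2 scale over both diets (limma adjusted p = 0.0277), a call lost without P339, P341, P358, P359, P382, P383, P390 or P391 (highest adjusted p 0.0685). Its partners *Kcnj6* and *Kcnj9* were not called in any comparison, and *Kcnj11*, the Kir6.2 pore of endocrine cells, averaged 4.98 ± 1.24 in Ctrl mice and 3.92 ± 1.04 in mutants on SD with no call.

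Of the voltage-gated pores, *Kcnh6* and *Kcna3* were called lower over both diets beside *Kcnh4*, which was higher (0.94 ± 0.22, limma adjusted p = 0.0190). *Kcnh6*, another Erg channel, had levels of 1.37, 4.06, 3.66 and 4.13 in Ctrl mice and 1.15, 1.39, 0.752 and 1.13 in mutants on SD. On HFD they were 1.53, 2.83, 6.19 and 0.798 in Ctrl mice and 0.819, 0.560, 1.05 and 0.654 in mutants. P356 and P392 were the controls that reached the mutant range. It fell by 1.16 ± 0.29 on the log2 scale over both diets (limma adjusted p = 0.0287), which was lost without P339, P341, P358, P359, P382, P383 or P390 (highest adjusted p 0.0684). *Kcnh2*, the Erg channel with the highest level, was not called (-0.28 ± 0.10, adjusted p = 0.107), and was called without P357 and P392 (-0.31).

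*Kcna3*, the Kv1.3 channel known from lymphocytes, averaged 3.25 ± 1.48 in Ctrl mice and 0.742 ± 0.765 in mutants on SD, and 1.38 ± 0.502 and 0.974 ± 0.506 on HFD. It fell by 1.03 ± 0.29 over both diets (limma adjusted p = 0.0485). Leaving out single mice, the call held only without P356, P381 or P392, and it held in 9 of 11 other settings. *Kcna3* has 1 annotated transcript, so its depth could be estimated from the spacing of low values: about 3.97 to 49.7 reads per library in mutants on SD and 37.9 to 151 in Ctrl mice on SD. The lowest level, 0.151 in P357, rested on about 3.97 reads.

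Among auxiliary and silent subunits, *Kcne2* and *Kcng1* were also called over both diets. *Kcne2*, a single-pass subunit that joins Erg and Kcnq channels, had levels of 1.47, 0.652, 0.776 and 0.379 in Ctrl mice and 1.72, 1.94, 4.44 and 3.25 in mutants on SD. The HFD groups had 0.777, 1.15, 0.587 and 2.49 in Ctrl mice and 5.53, 6.06, 2.67 and 3.65 in mutants. The genotypes did not overlap on either diet, and over both diets the log2 change was 1.44 ± 0.26 (limma adjusted p = 0.00553), the largest of the 9 genes that rose. *Kcng1*, a silent voltage-gated subunit, showed the largest fall, 1.48 ± 0.32 (adjusted p = 0.0154), from 3.16 ± 2.01 to 0.643 ± 0.674 on SD. The channel-interacting proteins that set A-type current were not called with all 16 mice. *Kcnip3* averaged 24.1 ± 6.52 in Ctrl mice and 15.2 ± 1.64 in mutants on SD (-0.53 ± 0.16 over both diets, limma adjusted p = 0.0563). Without P357 and P392, *Kcnip3*, *Kcnip1* (-0.76) and *Kcnip2* (-1.07) were called lower over both diets, and *Kcnip4* was not called. *Kcnip2* was then also the 1 potassium channel gene called lower on SD (-1.19).

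Of the 14 calls over both diets, those of *Kcnt2*, *Kcnab1*, *Kcne2*, *Kcnt1*, *Kcnj8*, *Kcnk1*, *Kcnh4* and *Kcng1* held without each of the 16 mice in turn. The map of called genes by mouse shows the 4 groups side by side.

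**Figure D4:**
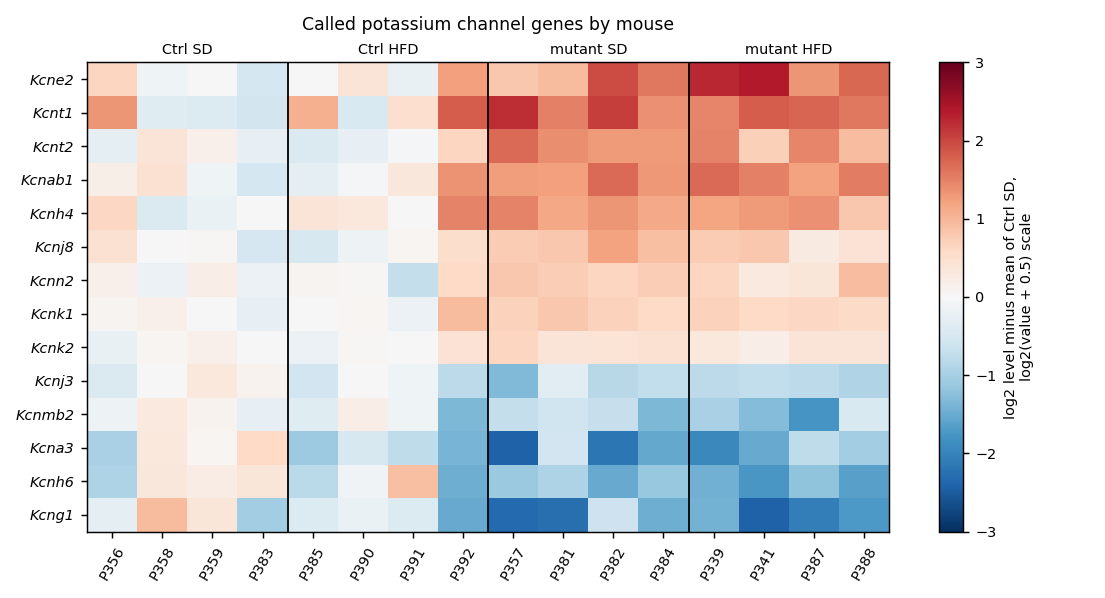
Level of the 14 called genes in each mouse on the log2(value + 0.5) scale, less the mean of the 4 Ctrl mice on SD; red is higher and blue is lower, and vertical lines part the groups. The column of P392 takes the colours of the mutant columns for all 14 genes, and P356 and P385 do so for *Kcnt1*.

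Of 30 genes with a mean level below 1, *Kcnk15* was named after its values were seen. It encodes a 2-pore-domain subunit of the TASK group (chromosome 2, 163853651 to 163859746). It was listed at 0 in 4 of the 8 Ctrl mice, at 0.294, 0.202 and 0.0668 in 3 others and at 1.60 in P392, and the 8 mutants ran from 0.860 to 2. On SD the groups did not overlap, which was also so for the low genes *Kcna6*, *Kcna7*, *Kcne4*, *Kcnj15* and *Kcns3*. On HFD the groups overlapped for each of these genes. Of all genes with a mean of at least 1, 10.6% did not overlap on SD. With genes of a mean of at least 0.1 included in the fit, 84 potassium channel genes and 17169 genes in all were tested, and *Kcnk15* was called on SD (limma adjusted p = 0.0404, beside 1.64% of all genes) and over both diets (adjusted p = 0.00568, beside 5.83%). Under that filter *Kcna6*, a Kv1 pore at 0.178 to 1.82, was the other low gene called over both diets (log2 change 0.71, adjusted p = 0.0351). *Kcna6* shares exon sequence with Gm26673 on the opposite strand.

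No potassium channel gene passed the threshold between diets. In mutants, HFD against SD called 0 of the 55 and 0.00% of all genes; 2 of the 55 had an unadjusted p below 0.05, beside 5.0% of all genes, and groups did not overlap for 1, beside 3.31%. That gene was *Kcnj10*, the glial Kir4.1 channel, with 2.90, 2.79, 3.33 and 3.34 on SD and 2.13, 2.69, 1.64 and 2.21 on HFD (log2 change -0.44 ± 0.18, limma adjusted p = 0.813). In Ctrl mice it again called 0 of the 55 and 0.00% of all genes; 4 of the 55 had an unadjusted p below 0.05, beside 4.13%, and groups did not overlap for 1, beside 2.61%. There it was *Kcng2*, a silent subunit, with 0.344, 0.310, 0.146 and 0.202 on SD and 0.551, 1.34, 0.827 and 4.13 on HFD, the last being P392 (1.32 ± 0.44, adjusted p = 0.998). Averaged over genotypes, diet called 0 of the 55 and 0.00697% of all genes, and 4 of the 55 had an unadjusted p below 0.05, beside 5.11%.

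*Kcnc1* had the smallest p of the 55 in the test of whether the genotypes differed in their response to diet. This gene, a fast delayed rectifier, had levels of 2.69, 5.17, 4.29 and 4.75 on SD and 2.70, 2.32, 3 and 1.32 on HFD in Ctrl mice, and 1.84, 2.55, 1.87 and 2.57 on SD and 2.02, 3.71, 4.48 and 2.18 on HFD in mutants. The interaction was 1.11 ± 0.38 (limma adjusted p = 0.924), so it did not pass the correction.

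A further 16 genes that work with these channels were listed as a group of partners, and 11 passed the filter on low values. Over both diets 3 of the 11 were called, all higher, beside 6.54% of all genes (4.48% higher): *Abcc9*, *Cntnap2* and *Hcn2*. *Cntnap2*, which clusters Kv1 channels at axons, had levels of 13.6, 14.7, 14.9 and 13.1 in Ctrl mice and 23.0, 25.2, 22.8 and 30.1 in mutants on SD (log2 change over both diets 0.75 ± 0.13, limma adjusted p = 0.00471). *Hcn2*, a pacemaker channel that opens on hyperpolarization, had levels of 11.8, 10.3, 8 and 11 in Ctrl mice and 13.4, 17.9, 16.9 and 18.1 in mutants on SD (0.64 ± 0.12, adjusted p = 0.00825). In both genes P392 lay above every other Ctrl mouse, at 19.9 and 16.3. On SD only *Cntnap2* was called (limma adjusted p = 0.0355), beside 1.84% of all genes, and no partner was called on HFD, beside 0.00%.

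Some markers of other cell types moved with genotype beside these genes. Summed levels of 4 endothelial markers were 80.1 to 107 in 7 Ctrl mice, 155 in P392 and 128 to 180 in mutants. Those of 4 neuronal markers were 15.0 to 23.6 in 7 Ctrl mice, 34.0 in P392 and 22.1 to 42.9 in mutants. The neuronal sum followed *Slc17a6*, at 8.76 to 16.1 in those 7 Ctrl mice, 27.1 in P392 and 18.4 to 32.8 in mutants. *Rbfox3* (3.37 to 9.24 in Ctrl mice, 2.93 to 10.1 in mutants), *Slc32a1* and *Gad1* overlapped between genotypes. Summed levels of 4 immune markers were 22.9 to 47.9 in 7 Ctrl mice, 79.0 in P392 and 46.2 to 122 in mutants, and these are mainly genes of macrophages. The sum of the lactotroph markers *Prl* and *Drd2* is nearly all *Prl*, and it overlapped, at 262245 to 438914 in Ctrl mice and 294355 to 496866 in mutants. *Drd2* by itself was 51.2 to 70.1 in 7 Ctrl mice, 24.7 in P392 and 12.4 to 51.7 in mutants. The genotypes overlapped for somatotroph markers (*Gh* and *Ghrhr*), at 35710 to 88788 in Ctrl mice and 30503 to 95188 in mutants. Their part in the channel differences was not tested.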

How the data were processed

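Per the labels, RNA of whole pituitary was made into NEBNext Ultra II libraries and sequenced on an Illumina NovaSeq. Per the submitters' processing notes and the study's methods, reads were assigned to the mouse transcriptome (mm10) with kallisto and analysed with sleuth, with no versions given. The authors deposited 1 table of a normalized signal per gene and mouse, not counts. Value sums were 908897 to 1335782 per mouse. The spacing of low values gave 0.0437 to 0.0685 per read and kilobase, and 80.9% to 93.5% of low values were whole reads within 0.15 of a read, so depth is an estimate. The planned test for normalized values was used, since these are not counts: limma 3.58.1 in R 4.3.3 on log2(value + 0.5), genes with a mean of at least 1, 4 group means over all 16 mice, eBayes with trend, Benjamini-Hochberg adjustment over 14345 genes. The fit was tested on simulated data with independent noise for each gene, which cannot show how calls respond to libraries that stand apart. Named were all called genes, the 3 largest rises and falls without overlap per comparison, the 12 highest in Ctrl mice on SD, and a list of known pituitary channels; exceptions are stated, and 2 genes are not reported here. Members and lists were chosen with earlier results of these data known. Exons of 26 members overlap another gene. Of 94 annotated protein-coding Kcn genes, 9 had no row. Promoters are RefSeq sequences of GRCm38.p6. Alternatives covered filters, pseudocounts, scalings, trend, covariates, threshold and left-out mice.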

Additional observations from a re-analysis of the deposited data

Results flagged for a closer look

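Dixon's ratio (the gap between the extreme mouse and its nearest neighbour over the range of the 4 mice) passed 0.829 in 10 of 136 groups searched over 34 named genes, where chance gives about 1 in 20, or 6.8. P356, a Ctrl mouse on SD, held 3 of them: *Kcnt1* at 116 against 31.5 to 35.6, *Kcnmb4* at 10.2 against 20.9 to 21.9, and *Kcnh6* at 1.37 against 3.66 to 4.13. Another Ctrl mouse on SD, P358, had *Kcnk9* at 14 against 5.30 to 6.72. On HFD, the Ctrl mouse P392 had *Kcnk1* at 37.3 against 16.9 to 19.9, and the Ctrl mouse P390 had *Kcnd2* at 11.6 against 6.31 to 7.11. Among mutants on SD, P357 had *Kcnd3* at 9.02 against 15.0 to 15.4, and P382 had *Kcnab1* at 13.8 against 9.89 to 10.4. Among mutants on HFD, P388 had *Kcng2* at 0.575 against 3.15 to 3.65, and P341 had *Kcnj6* at 5.57 against 6.91 to 7.14. No potassium channel gene differed between diets in its genotype effect past the correction.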

How the results depend on the processing

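The number of potassium channel genes called on SD (4 with all mice) was 1 of 25 tested with a mean of at least 5 (1.40% of all genes). It was 2 when libraries were scaled to the sum without *Prl*, *Gh* and mitochondrial genes (1.35%). With the intermediate and posterior lobe marker score as covariate, which includes *Col25a1* and so partly follows genotype, it was 1 (0.432%). It was 10 without P357 and P392 (6.70%) and 0 at an adjusted p under 0.01 (0.139%). Leaving out each mouse in turn it ran from 0 to 12. On HFD (0) it was 1 with the lobe score (0.474% of all genes) and 10 without P357 and P392 (7.42%), and 0 to 7 with each mouse left out. Over both diets (14) it was 6 of 25 tested with a mean of at least 5 (5.65% of all genes). With the lobe score it was 18 (9.07%), and all 14 genes called without that score were among them. It was 27 without P357 and P392 (18.6%) and 3 at an adjusted p under 0.01 (1.297%), and 9 to 24 with each mouse left out. The cause was not tested, apart from the smaller number of genes tested under the stricter filter. Quantile normalization split the calls on SD into 3 higher and 2 lower, beside 1.91% of all genes. Scaling to the sum without *Prl*, *Gh* and mitochondrial genes shifted the median of all genes on SD to -0.11. Among the named results, directions turned only for *Kcna3* on HFD and *Kcnd3* over both diets, neither of them called. *Kcna3* on HFD was -0.38 in the main fit and 0.0546 with the range of animal numbers as covariate. *Kcnd3* over both diets was -0.03 in the main fit and 0.0497 without P357 and P392. With each mouse left out it ran from -0.0638 to 0.0640 (above 0 without P357, P383 or P388). No paired analysis was possible because the labels give animal numbers only, with no number shared between groups. Depth limited the low genes, where *Kcna3* rested on about 3.97 reads in P357.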
